A study of Mus musculus with 6 samples.

Results

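The 34 genes described here encode the machinery that burns fatty acids in mitochondria, and were chosen by name from that pathway: 7 genes of the carnitine shuttle, 19 of beta-oxidation, 3 of electron transfer and 5 regulators. All 34 symbols were found among the 54532 gene identifiers measured, by their names in the GENCODE M21 annotation of GRCm38. Their mRNA was measured by RNA-seq in iBMDMs, mouse bone marrow-derived macrophages from wild-type mice that were immortalized and grow as a cell line. The control group expressed a control shRNA and the PGAM5 KD group an shRNA against Pgam5, a mitochondrial protein phosphatase, both delivered by lentivirus. Both groups, with 3 libraries each, received LPS at 100 ng/ml for 4 hours, so the comparison is between LPS-treated cells and holds no untreated level. Both groups come from 1 immortalized line, and the sources used here do not say how many shRNA sequences each group carried. An effect of the Pgam5 knockdown cannot be told apart here from another difference between the 2 infected populations.

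Long-chain fatty acids enter the mitochondrial matrix as carnitine esters, through the outer membrane transferase CPT1, a carrier in the inner membrane and CPT2 on its inner face. In the matrix, each round of beta-oxidation takes a dehydrogenation, a hydration, a second dehydrogenation and a thiolytic cleavage, and releases acetyl-CoA. The acyl-CoA dehydrogenases hand their electrons to the electron transfer flavoprotein and from there to ubiquinone. Malonyl-CoA, the first committed product of fatty acid synthesis, inhibits CPT1, and PPAR nuclear receptors with PGC-1 coactivators are known to drive transcription of the pathway. In macrophages, LPS is known to favour glycolysis over oxidative use of fuels, and fatty acid oxidation is usually linked to the alternatively activated state.

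Library depth, recovered from the deposited FPKM values (fragments per kilobase of exon, divided by the depth of the library), was between 18163462 and 24388914 fragments. Pgam5, on chromosome 5 (110259130 to 110269913, minus strand), was at 17.1, 13.0 and 13.4 FPKM in control and at 4.33, 5.75 and 4.53 FPKM in PGAM5 KD libraries, a log2 fold change of -1.40 (SE 0.13, adjusted p = 0.000358). Here and below, a log2 fold change is a difference in log2(FPKM + 1), PGAM5 KD minus control, with the adjusted p of limma over all 10540 genes with a mean of at least 1 FPKM. Of 8 macrophage markers, 7 were detected and Mertk was listed at 0, and their summed level was 2802 to 2894 FPKM in control and 2526 to 2544 FPKM in PGAM5 KD libraries. All 7 differed between the groups (adjusted p under 0.05), 4 higher and 3 lower in PGAM5 KD cells, where 31.7% of all genes tested differed. Their log2 fold changes ran from -0.64 for Csf1r to 1.51 for Fcgr1, both named after their values were seen. The part of this difference in the results below was not tested. The summed markers of neutrophils, fibroblasts, lymphocytes and adipocytes stayed at or under 0.328 FPKM in every library. In these bulk samples, fewer cells that express a gene and less of its RNA per cell cannot be told apart. The labels do not say whether the replicates were separate cultures, so the p-values measure the spread between these libraries, which may be technical.

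The fatty acid oxidation genes differed little between the groups. Of the 28 that were tested, the PGAM5 KD cells had more mRNA of Acadsb, Acat1 and Etfa and less of Cpt1a and Mlycd (adjusted p under 0.05 for each), which is 17.9% of the tested genes of the pathway, beside 31.7% of all 10540 genes. By direction, 3 of 28 were higher, where 16.8% of all genes were, and 2 of 28 were lower, where 14.9% of all genes were. With the further limit of a 2-fold difference, 0 of 28 were called and 1.32% of all genes were. The log2 fold changes ran from -0.36 for Mlycd to 0.37 for Ppard, with a median of 0.06 and a median size of 0.12, beside 0.01 and 0.15 for all genes. On this scale, which understates the change of low genes, the 95% interval lay within a 1.5-fold difference for 25 of the 28 genes, the exceptions being the regulators Mlycd, Ppard and Ppargc1b, and within a 2-fold difference for all 28. With a pseudocount of 0.1 in place of 1 it lay within 1.5-fold for 22, with Slc22a5, Acad10 and Acad11 as further exceptions, and within 2-fold for 27, since the interval of Ppard ran from 0.07 to 1.099. Of the 28, 19 had a positive and 9 a negative value, but with each library scaled to TPM, where FPKM values are divided by their sum over all genes in the library, 13 of 28 were positive. That scaling also moved the share of higher genes among all genes called from 52.9% to 32.3%. The other 6 genes of the 34 were too low to test: Cpt1b, Cpt1c, Acad12, Decr1, Ppara and Ppargc1a.

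**Figure D1:**
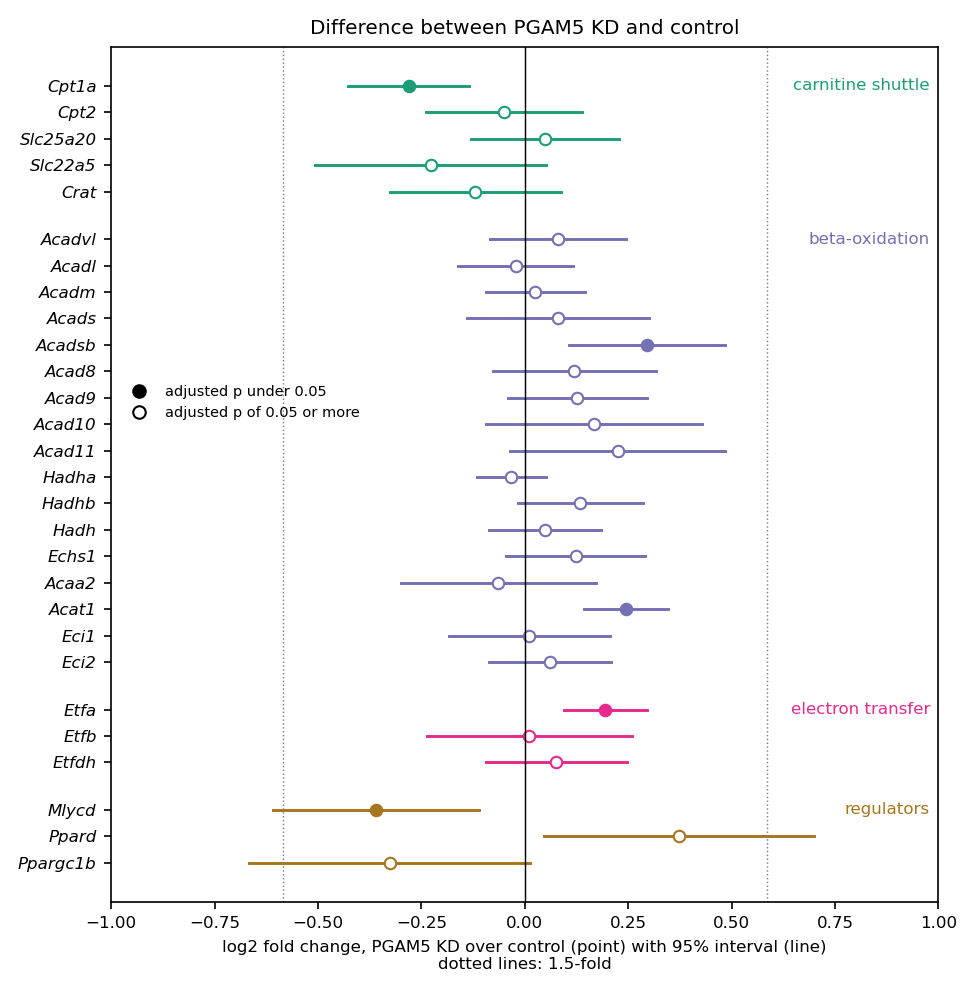
Difference between PGAM5 KD and control for the 28 fatty acid oxidation genes tested, grouped and coloured by step. The horizontal axis is the log2 fold change on the log2(FPKM + 1) scale, points are estimates, lines are 95% intervals from limma (3 libraries per group), and filled points have an adjusted p under 0.05. The 5 filled points are Cpt1a, Acadsb, Acat1, Etfa and Mlycd, and no estimate reaches the dotted 1.5-fold lines.

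The libraries of the 2 groups did not overlap for 9 of the 28 genes, where they did not for 47.1% of all genes tested. Of these, 6 were higher in PGAM5 KD cells (Acadsb, Acad11, Echs1, Acat1, Etfa and Ppard), where 24.2% of all genes tested were, and 3 were lower (Cpt1a, Hadha and Mlycd), where 22.9% were. The smallest p that an exact permutation test can give with 3 libraries against 3 is 0.1, so that test cannot pass 0.05 for any single gene.

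**Figure D2:**
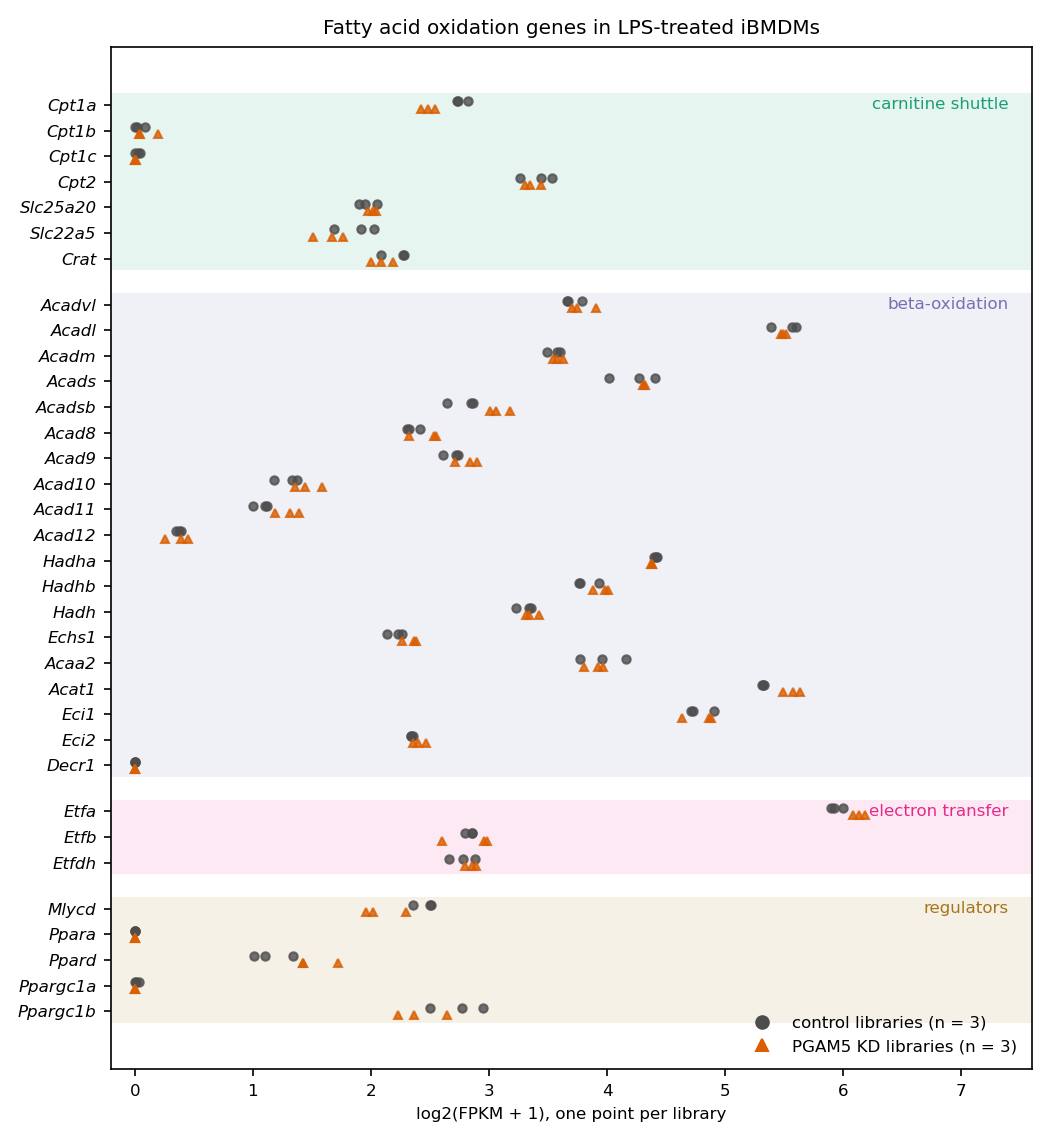
Level of each of the 34 fatty acid oxidation genes in every library, grouped by step. The horizontal axis is log2(FPKM + 1), grey circles are the 3 control and orange triangles the 3 PGAM5 KD libraries. Levels run from 0 for Decr1 and Ppara to above 58 FPKM for Etfa, and for 19 of the 28 genes tested the circles and triangles overlap.

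Promoter sequence is shown for the genes that differed, since the members are linked in textbooks by shared transcription factors. RefSeq gave a promoter window on GRCm38.p6, 250 bases before to 50 after the start, for 27 of the 34 genes. It was missing for Acaa2, Acat1, Acad9, Crat, Ppargc1b, Decr1 and Cpt1b. Each line runs 5′ to 3′ on the strand of the gene, and capitals mark CCAAT or its reverse complement, the core of the box that the factor NF-Y is known to bind.
Cpt1a promoter, chr19:3323051-3323350, plus strand: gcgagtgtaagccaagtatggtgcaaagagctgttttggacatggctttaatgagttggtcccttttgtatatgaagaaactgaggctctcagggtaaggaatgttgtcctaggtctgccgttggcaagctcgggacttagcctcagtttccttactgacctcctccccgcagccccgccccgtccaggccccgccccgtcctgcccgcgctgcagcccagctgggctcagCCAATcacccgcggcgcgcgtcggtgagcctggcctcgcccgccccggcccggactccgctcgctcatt
Mlycd promoter, chr8:119394644-119394943, plus strand: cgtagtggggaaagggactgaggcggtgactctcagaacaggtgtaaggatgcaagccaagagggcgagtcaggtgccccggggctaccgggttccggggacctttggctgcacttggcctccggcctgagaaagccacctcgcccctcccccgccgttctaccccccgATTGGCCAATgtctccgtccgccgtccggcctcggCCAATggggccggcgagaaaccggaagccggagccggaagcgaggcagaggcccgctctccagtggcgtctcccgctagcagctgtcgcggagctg
Etfa promoter, chr9:55512194-55512493, minus strand: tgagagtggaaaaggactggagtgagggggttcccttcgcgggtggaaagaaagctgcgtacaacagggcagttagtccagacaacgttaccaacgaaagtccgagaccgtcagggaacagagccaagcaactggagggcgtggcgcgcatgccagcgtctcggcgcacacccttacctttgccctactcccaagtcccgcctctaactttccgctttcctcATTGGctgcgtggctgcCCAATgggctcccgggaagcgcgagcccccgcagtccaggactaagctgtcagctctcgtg
Acadsb promoter, chr7:131410351-131410650, plus strand: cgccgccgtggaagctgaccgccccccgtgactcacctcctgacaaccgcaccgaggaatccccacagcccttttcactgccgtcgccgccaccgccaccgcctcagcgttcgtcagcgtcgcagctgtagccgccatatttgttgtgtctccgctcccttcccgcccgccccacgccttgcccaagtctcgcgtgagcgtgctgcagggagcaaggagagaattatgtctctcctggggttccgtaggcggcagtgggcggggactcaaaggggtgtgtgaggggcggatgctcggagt

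Among these 4, CCAAT was found on either strand at 1 place for Cpt1a, 3 for Mlycd and 2 for Etfa, and at 0 for Acadsb. Of the 2 genes lower in PGAM5 KD cells and the 2 higher ones shown here, both lower ones and 1 of the higher ones hold it. Over the pathway 11 of 27 promoters held CCAAT, beside 37.9% of the 27025 promoters in the table. A PPAR/RXR element, written as a pair of AGGTCA half-sites in direct repeat with any 1 base between them (DR1), was found in 0 of 27 and in 0.0444% of all promoters. The ERR element TCAAGGTCA was found in 0 of 27 and in 0.407% of all promoters, and the E-box CACGTG in 0 of 27 and in 7.24%. The NRF1 element GCGCANGCG was found in 7 of 27, namely Acad10, Acad12, Acadm, Etfb, Etfdh, Ppara and Slc22a5, and in 6.47% of all promoters. Both strands were searched for exact letters, the ERR element contains 1 AGGTCA half-site, no searched element contains CCAAT, which was added after seeing the sequences, and a match is a description of these windows.

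In the carnitine shuttle, Cpt1a fell in PGAM5 KD cells and the other 4 genes tested did not pass the threshold. Cpt1a, the outer membrane carnitine palmitoyltransferase that sets the rate of entry, lies on chromosome 19 (3322334 to 3385733, plus strand). It was at 6.09, 5.67 and 5.62 FPKM in control and at 4.38, 4.58 and 4.82 FPKM in PGAM5 KD libraries. Every PGAM5 KD library was below every control library, and the ratio of the means was 0.793. The log2 fold change was -0.28 (SE 0.06, 95% interval -0.43 to -0.13, adjusted p = 0.0146), and the call held under 15 of 15 alternative settings, with adjusted p from 0.00243 to 0.0498. Cpt1a also carried nearly all of the counted CPT1 fragments, with 98.6% to 99.7% of those on the 3 CPT1 genes in each library. Cpt1b, the muscle isoform, had 21 fragments over the 6 libraries, and Cpt1c, the brain isoform, had 6. Of the exon bases of Cpt1b, 81.4% are shared on the same strand with Gm44502, which was listed at 0. Fragments there may not have been counted on either gene, so the count and the share of Cpt1b may be too low.

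The remaining shuttle genes were lower in the mean in PGAM5 KD cells except for the carrier Slc25a20. Cpt2, the inner membrane transferase that restores the CoA ester, was at 10.6, 9.87 and 8.59 FPKM in control and at 8.89, 9.83 and 9.19 FPKM in PGAM5 KD libraries, with a log2 fold change of -0.05 (95% interval -0.24 to 0.14). Slc25a20, the carnitine-acylcarnitine carrier, was at 3.14, 2.85 and 2.73 FPKM in control and at 3.12, 3.06 and 2.94 FPKM in PGAM5 KD libraries. Its log2 fold change was 0.05 (95% interval -0.13 to 0.23), and it turned to -0.012 with TPM scaling. Slc22a5, the plasma membrane carnitine transporter OCTN2, was at 3.07, 2.23 and 2.77 FPKM in control and at 2.18, 1.85 and 2.40 FPKM in PGAM5 KD libraries. The groups overlapped, and the log2 fold change was -0.23 (95% interval -0.51 to 0.05, adjusted p = 0.189). Its paralog Slc22a21 resembles it at 88.8% identity over 2115 bases, and 74.2% to 94.5% of the fragments on the pair were counted on Slc22a5. In fragments at equal depth, with no pseudocount, the log2 fold change was -0.32 for Slc22a5 alone and -0.49 for the pair summed, neither tested. Crat, the acetyl-carnitine transferase of the matrix, was at 3.82, 3.25 and 3.85 FPKM in control and at 3.55, 3.00 and 3.25 FPKM in PGAM5 KD libraries, with a log2 fold change of -0.12 (95% interval -0.33 to 0.09).

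Of the acyl-CoA dehydrogenases, which carry out the first step of each round, Acadsb rose and the 4 dehydrogenases of straight-chain substrates did not pass the threshold. Acadsb, which acts on short branched chains and belongs to isoleucine breakdown, lies on chromosome 7 (131410601 to 131448944, plus strand). It was at 6.20, 6.27 and 5.27 FPKM in control and at 7.35, 7.03 and 8.03 FPKM in PGAM5 KD libraries. The groups did not overlap, the ratio of the means was 1.26, and the log2 fold change was 0.30 (SE 0.08, 95% interval 0.11 to 0.48, adjusted p = 0.0297). This call held under 9 of 15 alternatives (adjusted p 0.00317 to 0.0931) and was lost under 6, among them TPM scaling (adjusted p = 0.0666), no filter on low values (adjusted p = 0.0740), and the fits without control replicate 3 (adjusted p = 0.0730) and without PGAM5 KD replicate 1 (adjusted p = 0.0607) or 3 (adjusted p = 0.0931).

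The 4 chain-length dehydrogenases stayed close to the control level. Acadvl, for very long chains, was at 11.7, 11.6 and 12.9 FPKM in control and at 14.0, 12.0 and 12.4 FPKM in PGAM5 KD libraries (log2 fold change 0.08, 95% interval -0.08 to 0.24). Of its exon bases, 42.9% overlap Dvl2 on the other strand, which fell by 0.41 on the log2 scale (adjusted p = 0.00131), and the sources used here do not say whether strand was used in counting. Acadl, for long chains, was among the most abundant genes of the pathway, with 46.4, 40.8 and 47.5 FPKM in control and 44.1, 44.8 and 43.4 FPKM in PGAM5 KD libraries (log2 fold change -0.02, 95% interval -0.16 to 0.12). Acadm, for medium chains, was at 10.2, 10.9 and 11.1 FPKM in control and at 10.6, 11.3 and 10.9 FPKM in PGAM5 KD libraries, with a log2 fold change of 0.03 (95% interval -0.09 to 0.15) that turned to -0.049 with TPM scaling. Acads, for short chains, was at 20.2, 15.2 and 18.3 FPKM in control and at 19.0, 18.7 and 18.8 FPKM in PGAM5 KD libraries (log2 fold change 0.08, 95% interval -0.14 to 0.30). The spread of Acads lay within the control group, whose SD was 2.53 FPKM against 0.109 FPKM in PGAM5 KD.

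The other members of the dehydrogenase family were all higher in the mean in PGAM5 KD cells, except for Acad12, and did not pass the threshold. Acad8, the isobutyryl-CoA dehydrogenase of valine breakdown, had a log2 fold change of 0.12 (95% interval -0.08 to 0.32) at 4.09 ± 0.218 FPKM in control and 4.55 ± 0.476 FPKM in PGAM5 KD (SD, n = 3). Acad9, known as an assembly factor of respiratory complex I as well as a dehydrogenase, had 0.13 (95% interval -0.04 to 0.30) at 5.46 ± 0.302 and 6.06 ± 0.456 FPKM. Acad11, for long and very long chains, was at 1.15, 1.17 and 1.00 FPKM in control and at 1.28, 1.63 and 1.49 FPKM in PGAM5 KD libraries, which did not overlap. Its log2 fold change was 0.22 (95% interval -0.04 to 0.49, adjusted p = 0.167), and with voom on the recovered fragments it was 0.38 (adjusted p = 0.0484; 0.0484 to 0.364 over 14 alternatives). Acad10 had 0.17 (95% interval -0.09 to 0.43) at 1.46 ± 0.172 and 1.76 ± 0.219 FPKM. Acad12, its close relative at 95.3% identity over 1614 bases, stayed between 0.195 and 0.363 FPKM and was not tested, and reads may be divided between this pair.

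The 2 subunits of the mitochondrial trifunctional protein, which carries out the last 3 steps for long chains, are encoded head to head on chromosome 5, and neither passed the threshold. Hadha spans 30118304 to 30155162 on the minus strand and Hadhb 30155248 to 30184593 on the plus strand, and in RefSeq their starts are 273 bases apart. The window of Hadhb is shown because 228 of its bases, in capitals, also belong to the window of Hadha, read from the other strand.
Hadhb promoter, chr5:30155003-30155302, plus strand: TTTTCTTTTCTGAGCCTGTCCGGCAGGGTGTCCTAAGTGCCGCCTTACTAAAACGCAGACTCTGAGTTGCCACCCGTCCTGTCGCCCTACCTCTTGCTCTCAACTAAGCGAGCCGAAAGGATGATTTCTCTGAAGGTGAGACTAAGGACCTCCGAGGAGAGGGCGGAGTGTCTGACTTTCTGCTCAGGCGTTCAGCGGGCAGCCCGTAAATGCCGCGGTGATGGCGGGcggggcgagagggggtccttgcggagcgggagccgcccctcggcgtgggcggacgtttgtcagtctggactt

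Hadha, the alpha subunit with the hydratase and the long-chain dehydrogenase, was at 20.38, 20.44 and 20.04 FPKM in control and at 19.80, 19.87 and 19.75 FPKM in PGAM5 KD libraries. The PGAM5 KD libraries all lay below the control libraries, but the difference was small, with a log2 fold change of -0.03 (95% interval -0.12 to 0.05, adjusted p = 0.519). Hadhb, the beta subunit with the thiolase, was at 12.6, 14.3 and 12.6 FPKM in control and at 15.1, 13.7 and 14.8 FPKM in PGAM5 KD libraries. Its groups overlapped, with a log2 fold change of 0.13 (95% interval -0.02 to 0.29, adjusted p = 0.156). A processed pseudogene, Gm13910, matches Hadhb at 99.8% identity over 1428 bases and was listed at 18.9 FPKM in control and 22.0 FPKM in PGAM5 KD. Of the fragments on Hadhb and its copies, 72.9% to 77.5% were counted on Hadhb, and in fragments at equal depth the log2 fold change was 0.14 for Hadhb alone and 0.16 for the sum. The difference between the 2 subunits was not tested.

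Among the short-chain enzymes and thiolases, Acat1 rose and the others did not pass the threshold. Acat1, the mitochondrial acetoacetyl-CoA thiolase of the last round, of ketone bodies and of isoleucine breakdown, lies on chromosome 9 (53580522 to 53610382, minus strand). It was at 39.0, 39.1 and 38.8 FPKM in control and at 46.7, 44.0 and 48.6 FPKM in PGAM5 KD libraries. The control libraries were nearly equal and every PGAM5 KD library was above them, with a ratio of the means of 1.19. The log2 fold change was 0.24 (SE 0.04, 95% interval 0.14 to 0.35, adjusted p = 0.00597), and the call held under 15 of 15 alternatives, TPM scaling included, with adjusted p from 0.000385 to 0.0293.

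Echs1, the short-chain enoyl-CoA hydratase, was at 3.79, 3.40 and 3.70 FPKM in control and at 4.20, 3.79 and 4.14 FPKM in PGAM5 KD libraries. The lowest PGAM5 KD library was level with the highest control library to 3 digits, and the log2 fold change was 0.12 (95% interval -0.04 to 0.29, adjusted p = 0.229). Hadh, the medium- and short-chain hydroxyacyl-CoA dehydrogenase, had a log2 fold change of 0.05 (95% interval -0.09 to 0.19) at 8.92 ± 0.462 FPKM in control and 9.27 ± 0.406 FPKM in PGAM5 KD, and -0.023 with TPM scaling. Acaa2, the medium-chain thiolase on chromosome 18, was at 12.6, 16.9 and 14.6 FPKM in control and at 14.6, 14.2 and 13.0 FPKM in PGAM5 KD libraries (log2 fold change -0.06, 95% interval -0.30 to 0.17).

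The auxiliary enzymes handle double bonds that the main cycle cannot. Eci1, an enoyl-CoA isomerase, was at 25.5, 25.2 and 29.0 FPKM in control and at 28.4, 23.9 and 28.2 FPKM in PGAM5 KD libraries (log2 fold change 0.01, 95% interval -0.18 to 0.21), and its sign turned with TPM scaling and with quantile normalization. Eci2, which is also found in peroxisomes, was at 4.05, 4.13 and 4.08 FPKM in control and at 4.11, 4.54 and 4.27 FPKM in PGAM5 KD libraries (log2 fold change 0.06, 95% interval -0.09 to 0.21), and turned to -0.0036 with TPM scaling. Decr1, the 2,4-dienoyl-CoA reductase of polyunsaturated fatty acids, was listed at 0 in all 6 libraries. No annotated exon of another gene overlaps its exons. Of the neighbouring protein-coding genes, named here after their values were seen, Nbn was at 15.5 to 19.5 FPKM and Calb1, on the other side, was at 0. Of 21918 protein-coding genes in the tables, 7991 were listed at 0 in all libraries, and whether this 0 reflects the cells or the counting was not tested.

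In electron transfer, Etfa rose while Etfb and Etfdh did not pass the threshold. Etfa, the alpha subunit of the electron transfer flavoprotein, on chromosome 9 (55454508 to 55512243, minus strand), had the highest level of the 34 genes. It was at 59.5, 63.0 and 58.6 FPKM in control and at 66.8, 69.3 and 71.7 FPKM in PGAM5 KD libraries, which did not overlap. The log2 fold change was 0.20 (SE 0.04, 95% interval 0.09 to 0.30, adjusted p = 0.0139) with a ratio of the means of 1.15. This call held under 13 of 15 alternatives (adjusted p 0.00658 to 0.0923) and was lost with TPM scaling (0.12, adjusted p = 0.0662) and with quantile normalization (0.12, adjusted p = 0.0923).

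Etfb, the beta subunit that pairs with Etfa in the working protein, was far lower in level, at 6.24, 6.26 and 5.94 FPKM in control and 5.08, 6.91 and 6.76 FPKM in PGAM5 KD libraries. The PGAM5 KD libraries lay on both sides of the control libraries, and the log2 fold change of 0.01 (95% interval -0.24 to 0.26) turned to -0.064 with TPM scaling. Of the exon bases of Etfb, 53.0% are shared on the same strand with Gm45233, which was listed at 0, so fragments there may not have been counted on either gene. Etfdh, the oxidoreductase that passes the electrons to ubiquinone, was at 5.85, 6.37 and 5.31 FPKM in control and at 6.26, 6.41 and 5.93 FPKM in PGAM5 KD libraries (log2 fold change 0.08, 95% interval -0.09 to 0.25).

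**Figure D3:**
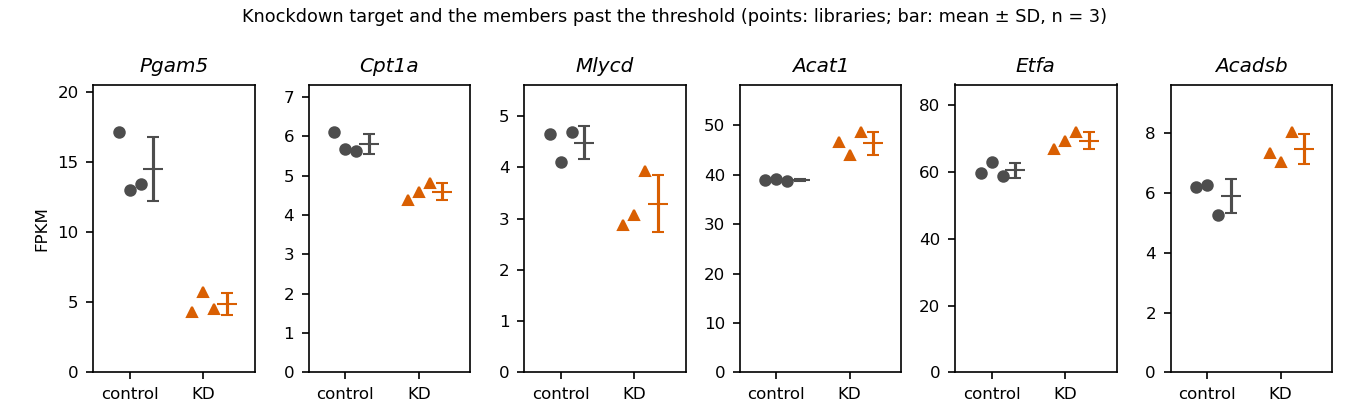
FPKM of Pgam5 and of the 5 fatty acid oxidation genes past the threshold, in each library. Each panel has its own vertical axis in FPKM starting at 0, points are the 3 control (grey circles) and 3 PGAM5 KD (orange triangles) libraries, and the bar beside them is the mean ± SD. In all 6 panels the groups do not overlap, and the distance between groups is widest for Pgam5.

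The 3 regulators tested had intervals that reached beyond a 1.5-fold difference on the log2(FPKM + 1) scale, and Mlycd fell. Mlycd, the malonyl-CoA decarboxylase that removes the inhibitor of CPT1, lies on chromosome 8 (119394878 to 119411102, plus strand). It was at 4.66, 4.11 and 4.68 FPKM in control and at 2.88, 3.06 and 3.92 FPKM in PGAM5 KD libraries. The groups did not overlap, although PGAM5 KD replicate 3 was close to control replicate 2, and the ratio of the means was 0.734. The log2 fold change was -0.36 (SE 0.11, 95% interval -0.61 to -0.11, adjusted p = 0.0396). This call held under 8 of 14 alternatives (adjusted p 0.0160 to 0.111). It was lost when low genes were not filtered out (adjusted p = 0.106), without control replicate 1 (adjusted p = 0.106), 2 (adjusted p = 0.0567) or 3 (adjusted p = 0.111), and without PGAM5 KD replicate 1 (adjusted p = 0.0985) or 2 (adjusted p = 0.110).

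The transcription regulators did not pass the threshold. Ppard, the one PPAR nuclear receptor gene with enough signal to be tested, was at 1.01, 1.15 and 1.53 FPKM in control and at 1.68, 1.68 and 2.29 FPKM in PGAM5 KD libraries. The groups did not overlap and the ratio of the means was 1.53, while the log2 fold change on the log2(FPKM + 1) scale was 0.37 (95% interval 0.05 to 0.70, adjusted p = 0.0817). With voom it was 0.63 (adjusted p = 0.0107; 0.0107 to 0.222 over 14 alternatives), where it was called higher. Ppargc1b, the coactivator PGC-1beta, was at 6.71, 5.83 and 4.67 FPKM in control and at 4.16, 5.26 and 3.69 FPKM in PGAM5 KD libraries, with overlap between the groups. Its log2 fold change was -0.33 (95% interval -0.67 to 0.01, adjusted p = 0.129), and with voom it was -0.42 (adjusted p = 0.0279; 0.0279 to 0.316 over 15 alternatives) and called lower. Ppargc1a, the coactivator PGC-1alpha, had 4 fragments over the 6 libraries, and Ppara was listed at 0 in all of them.

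Summed by step, the levels moved by small factors in different directions. The 7 shuttle genes together came to 24.8 ± 1.74 FPKM in control and 22.4 ± 0.310 FPKM in PGAM5 KD (SD, n = 3), a ratio of 0.905, and the 5 regulators to 11.5 ± 0.823 and 9.54 ± 0.707 FPKM, a ratio of 0.833. For both sums the PGAM5 KD libraries were all below the control libraries, also after TPM scaling. The 19 beta-oxidation genes came to 234 ± 5.18 and 248 ± 5.73 FPKM, a ratio of 1.06, and the 3 electron transfer genes to 72.4 ± 2.97 and 81.7 ± 3.23 FPKM, a ratio of 1.13. These 2 sums did not overlap between the groups in FPKM and did overlap after TPM scaling, with ratios of 1.00 and 1.07. The median log2 fold change of the genes tested was -0.12 for the shuttle (0 higher and 1 lower of 5), 0.08 for beta-oxidation (2 higher and 0 lower of 17), 0.08 for electron transfer (1 higher and 0 lower of 3) and -0.33 for the regulators (0 higher and 1 lower of 3), beside 16.8% higher and 14.9% lower over all genes. With TPM scaling the medians were -0.21 for the shuttle, 0.0074 for beta-oxidation, 0.0095 for electron transfer and -0.44 for the regulators, beside -0.06 for all genes. Under it 1 beta-oxidation and 0 electron transfer genes were higher, where 10.3% of all genes were. A sum follows its most abundant genes, and the steps were not tested against each other.

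A few genes around the pathway had larger log2 fold changes than any of the 28 pathway genes tested. In the list for fatty acid uptake and activation, 5 of 13 genes tested were higher and 1 lower, 46.2% in all beside 31.7% of all genes, with a median log2 fold change of 0.20. Fabp4, a cytosolic fatty acid-binding protein of macrophages and adipocytes, was at 3.57, 3.87 and 3.58 FPKM in control and at 7.50, 7.71 and 8.15 FPKM in PGAM5 KD libraries (log2 fold change 0.91, SE 0.06, adjusted p = 0.000102). Acsbg1, an acyl-CoA synthetase, was at 2.66, 2.98 and 3.57 FPKM in control and at 6.19, 6.45 and 6.95 FPKM in PGAM5 KD libraries (log2 fold change 0.89, SE 0.09, adjusted p = 0.000711). Both had about the same ratio of means, 2.12 and 2.13, with groups far apart.

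Slc27a1, the fatty acid transport protein FATP1, moved the other way, from 67.7, 67.1 and 70.7 FPKM in control to 46.6, 43.3 and 45.8 FPKM in PGAM5 KD libraries (log2 fold change -0.59, SE 0.04, adjusted p = 0.000117). Cd36, the scavenger receptor and fatty acid translocase, rose from 7.14 ± 0.288 to 9.12 ± 0.687 FPKM (0.31, adjusted p = 0.0119). Acsl4, the synthetase that prefers arachidonic acid, rose from 37.3 ± 0.913 to 42.9 ± 1.07 FPKM (0.20, adjusted p = 0.00790), a call that was lost with TPM scaling (adjusted p = 0.0608). The fifth higher gene, Fabp5, another fatty acid-binding protein, named after its values were seen, had 0.18 (adjusted p = 0.0463) and kept its call under 5 of 15 alternatives. It was lost, among others, with TPM scaling, with quantile normalization and without any 1 library but PGAM5 KD replicate 1. The calls of Fabp4, Acsbg1, Slc27a1 and Cd36 held under every alternative that tested them.

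On the malonyl-CoA side of the switch, 1 of 9 genes tested was higher and 1 lower, 22.2% in all beside 31.7% of all genes. Acaca, the carboxylase that makes malonyl-CoA for synthesis, fell from 9.32 ± 0.765 to 7.89 ± 0.256 FPKM (log2 fold change -0.21, adjusted p = 0.0471), and kept its call under 5 of 15 alternatives. It was lost without control replicate 2 or 3 and without any 1 of the 3 PGAM5 KD libraries. Acacb, the carboxylase isoform at the mitochondrion, was at a mean of 0.0964 FPKM and was not tested. Prkag1, a regulatory subunit of AMPK, the kinase that inactivates both carboxylases, rose from 6.56 ± 0.437 to 8.62 ± 0.343 FPKM (0.35, adjusted p = 0.00611).

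Peroxisomal beta-oxidation, which shortens very long chains before they reach mitochondria, had 2 higher and 1 lower of 15 genes tested, 3 of 15 called in all beside 31.7% of all genes. Crot, the peroxisomal carnitine octanoyltransferase, rose from 1.36 ± 0.147 to 2.44 ± 0.113 FPKM (log2 fold change 0.55, adjusted p = 0.00560), and Phyh, the phytanoyl-CoA hydroxylase, from 17.9 ± 1.52 to 22.5 ± 1.46 FPKM (0.32, adjusted p = 0.0172). Phyh lost its call without PGAM5 KD replicate 2 (adjusted p = 0.0549). Acaa1a, the peroxisomal thiolase, fell from 39.5 ± 1.97 to 31.3 ± 2.90 FPKM (-0.33, adjusted p = 0.0139).

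Branched-chain amino acid breakdown, which shares Acadsb, Acad8 and Acat1 with the genes above and feeds the same flavoprotein, had 5 higher and 0 lower of 20 genes tested with limma, with a median log2 fold change of 0.15, and at an unadjusted p under 0.05 it also had 0 lower, as with voom. Over all genes 16.8% were higher and 14.9% lower. Ppm1k, the phosphatase that activates the branched-chain ketoacid dehydrogenase, rose from 1.24 ± 0.228 to 2.31 ± 0.132 FPKM (0.57, adjusted p = 0.00908). Bckdk, the kinase that inactivates the same complex, rose from 28.9 ± 3.03 to 35.6 ± 1.86 FPKM (0.30, adjusted p = 0.0281). Hibch, of valine breakdown, and Dld, a subunit shared with pyruvate dehydrogenase, had 0.29 (adjusted p = 0.0404) and 0.14 (adjusted p = 0.0435). With TPM scaling 2 of 20 were higher, Ppm1k among them. Bckdk kept its call under 8 of 15 alternatives, Hibch under 5 of 14 and Dld under 6 of 15. Bckdk was lost without control replicate 2 or 3 or PGAM5 KD replicate 2 or 3, Hibch without any 1 of the 6 libraries, and Dld without any 1 of them but control replicate 2.

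Aacs, the cytosolic acetoacetyl-CoA synthetase, which activates ketone bodies, fell from 14.7 ± 0.397 to 11.4 ± 0.691 FPKM (-0.34, adjusted p = 0.00417). In the list of enzymes that make FAD or feed the electron transfer flavoprotein, 0 of 8 tested with limma were past the threshold, beside 31.7% of all genes, 0 had an unadjusted p under 0.05 and voom also called 0, and the log2 fold changes ran from -0.12 to 0.39.

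PPAR partners and coregulators had 2 higher and 5 lower of 16 genes tested, 43.8% in all beside 31.7% of all genes. With TPM scaling 1 was higher and 8 were lower, while over all genes 10.3% were higher and 21.7% lower, against 16.8% and 14.9% without it. Rxra, an RXR receptor that pairs with PPARs, was at 2.65, 2.79 and 3.25 FPKM in control and at 1.27, 1.45 and 1.33 FPKM in PGAM5 KD libraries (log2 fold change -0.73, SE 0.10, adjusted p = 0.00188). Esrra, the estrogen-related receptor that PGC-1 coactivators act on, was at 13.9, 14.1 and 14.3 FPKM in control and at 19.0, 20.8 and 20.9 FPKM in PGAM5 KD libraries (log2 fold change 0.49, SE 0.05, adjusted p = 0.000548). These nuclear receptors thus moved in opposite directions, each with its groups far apart and its call held under every alternative that tested it.

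The acetyltransferase gene Ep300 fell from 11.8 ± 0.177 to 8.13 ± 0.383 FPKM (-0.49, adjusted p = 0.000571), Crebbp, its paralog, from 4.91 ± 0.376 to 3.71 ± 0.363 FPKM (-0.33, adjusted p = 0.0250), and the deacetylase gene Sirt1 from 7.51 ± 1.01 to 5.74 ± 0.518 FPKM (-0.33, adjusted p = 0.0412). Crebbp kept its call under 9 of 14 alternatives and Sirt1 under 7 of 15. Crebbp was lost without control replicate 1 or 3 or PGAM5 KD replicate 2 or 3, and Sirt1 without control replicate 1 or 2 or any 1 PGAM5 KD library. The other 2 genes past the threshold, named after their values were seen, were the corepressor gene Ncor1 (-0.21, adjusted p = 0.00908), whose call held under every alternative, and Rxrb (0.17, adjusted p = 0.0414), which kept its call under 5 of 15 alternatives and lost it, among others, with TPM scaling, with quantile normalization and without control replicate 2 or 3 or any 1 PGAM5 KD library. Pparg was at a mean of 0.0115 FPKM and was not tested. Of 16 known PPAR target genes, 6 were tested and 1, Txnip, was higher, beside 16.8% of all genes, from 49.4 ± 1.99 to 57.2 ± 1.87 FPKM (0.21, adjusted p = 0.0112), a call lost with TPM scaling (adjusted p = 0.0523), under which the list had 0 higher and 1 lower. Pdk4, the PPAR target that restrains pyruvate dehydrogenase, was among the 8 listed at 0.

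**Figure D4:**
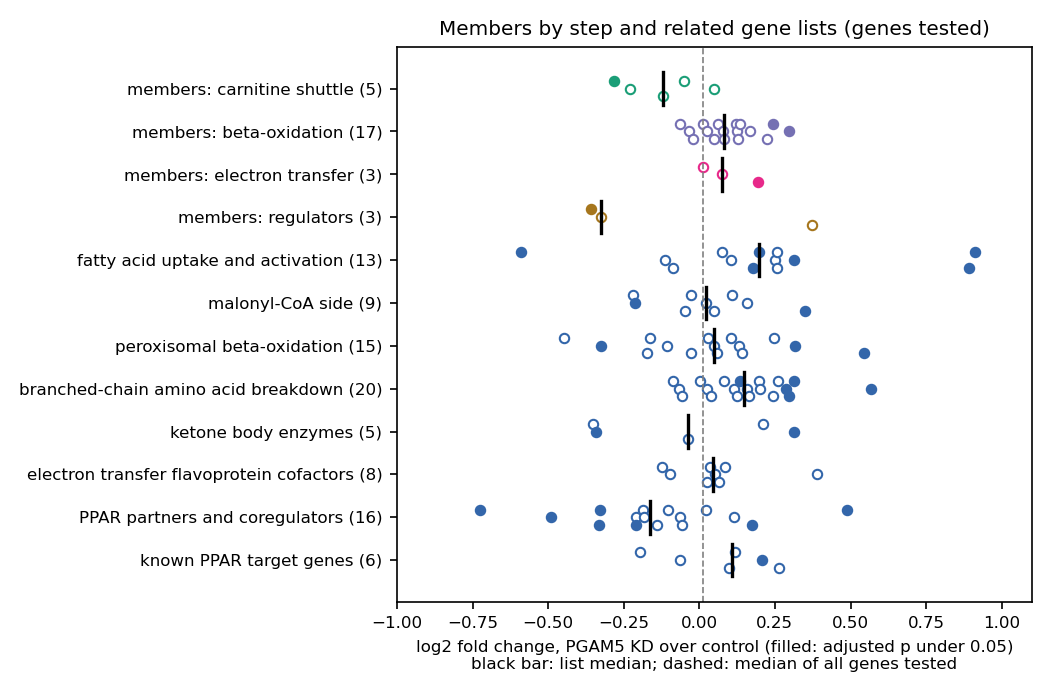
Log2 fold change of each gene tested, by step of the pathway (upper 4 rows) and by related list (lower 8 rows, number of genes tested in parentheses). The horizontal axis is the difference in log2(FPKM + 1), PGAM5 KD minus control, filled points have an adjusted p under 0.05, black bars are list medians and the dashed line is the median of all genes tested. The points of the 4 steps lie between -0.36 and 0.37, while Fabp4, Acsbg1, Rxra, Slc27a1, Ppm1k and Crot lie beyond 0.5 in size.

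The order of the levels within the pathway depended on the length by which fragments were divided. The deposited FPKM divides by all annotated exon bases of a gene, which for Echs1 is 5.32 times the length of its principal coding transcript. On the FPKM scale the order in control was Etfa at 60.4, Acadl at 44.9 ± 3.57, Acat1 at 39.0 ± 0.175, Eci1 at 26.6 and Hadha at 20.3 FPKM (mean, SD, n = 3). In PGAM5 KD cells Acat1, at 46.4 ± 2.32 FPKM, came before Acadl, at 44.1 ± 0.703 FPKM, and the others kept their places. With fragments divided by the length of the principal coding transcript and the same depth, a scale chosen after seeing the data, Etfa led in both groups, at 79.6 in control and 91.3 in PGAM5 KD. Behind it in control lay Eci1 at 49.7 ± 3.95, Acadl at 47.0 ± 3.74, Hadha at 44.1 ± 0.474, Acat1 at 43.0 ± 0.193 and Hadhb at 42.4 ± 3.08. In PGAM5 KD cells the order was Acat1 at 51.2 ± 2.56, Eci1 at 50.2 ± 4.81, Hadhb at 46.9 ± 2.44, Acadl at 46.2 ± 0.736 and Hadha at 43.1 ± 0.128. Behind Etfa, neighbours in these 2 orders differed by less than the larger of their SDs, except Hadha and Acat1 in control and Acadl and Hadha in PGAM5 KD. Over the mean of the 6 libraries, Echs1 moved from rank 22 at 3.84 to rank 10 at 20.4, Hadh from rank 12 to 7 and Etfdh from rank 15 to 11. Etfa stayed far above Etfb on both scales, at 64.8 against 6.20 FPKM and at 85.5 against 8.08 per kilobase of coding transcript. Both scales use the same fragments, so any fragments of Etfb left uncounted where it overlaps Gm45233 are missing from both. The fold change between the groups is the same on both scales, apart from the added constant of 1.

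**Figure D5:**
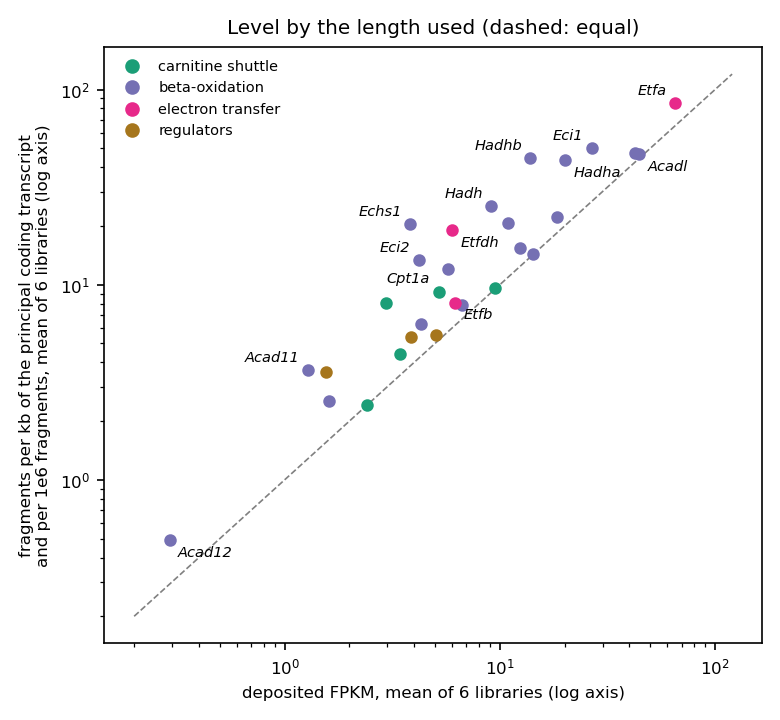
Mean level over the 6 libraries of the 29 fatty acid oxidation genes above 0.2 FPKM, coloured by step, on 2 log axes. The horizontal axis is the deposited FPKM, the vertical axis is the same fragments divided by the length of the principal coding transcript in kilobases and by depth, and the dashed line marks equal values. Echs1 lies farthest above the line, at 3.84 against 20.4, and Etfa is highest on both axes.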

How the data were processed

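The 6 RNA-seq libraries were grouped by the shRNA in their titles. The authors deposited FPKM per Ensembl gene, from poly(A) RNA. The submitters' processing notes name HISAT2 2.0.5, featureCounts 1.5.0-p3 and mm10, and neither the annotation release nor the strand setting is given in the sources used here. GENCODE M21 held 54409 of 54532 identifiers on its main chromosomes. FPKM times exon length fell within 0.01 of whole fragments for 96.8% to 97.1% of values under 1000, which gave each depth. Differences in log2(FPKM + 1) were fitted by limma 3.58.1 under R 4.3.3 (mean-variance trend, two-sided, Benjamini-Hochberg) for genes with a mean of at least 1 FPKM, after a check on simulated data. Summed FPKM was 304393 to 304889 in control and 317936 to 324298 in PGAM5 KD libraries, a difference that TPM scaling removes. The other alternatives were a pseudocount of 0.1, 2 filters, quantile normalization, median centring, no trend, voom on recovered fragments, a replicate block and leaving out each library. Near-identical genes were found with blastn 2.17.0 (at least 85% identity over 200 bases and 25% of the transcript). The genes named are the 34 pathway genes, Pgam5 and, from each related list, up to 5 called genes with the largest change. Also named are some of the genes sharing exon bases or sequence with a pathway gene, and genes marked or given as low. Other genes that share exon bases with a pathway gene are not named. Members and lists were chosen with earlier results of these data known. Some genes of the related lists are counted but not reported here by name.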

Additional observations from a re-analysis of the deposited data

How the results depend on the processing

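Cpt1a stayed lower and Acat1 higher, past the threshold, under all 15 alternatives, and over the 28 genes tested 372 gene and setting pairs kept direction and side of the threshold, 14 lost a call, 3 gained one and 21 changed sign. With TPM scaling 1 of 28 genes of the pathway was higher (Acat1), where 10.3% of all genes were. With voom 5 of 28 were higher, Acad11 and Ppard added, and 3 lower, Ppargc1b added. Over all genes voom called 18.4% higher and 18.6% lower. Without a filter on low values and with a mean of at least 5 FPKM, 1 gene was lower (Cpt1a), of 32 and 18 tested. Mlycd was not tested under the second, and 6.09% and 17.5% of all genes were lower. Leaving out 1 library gave 1 to 2 lower and 2 to 3 higher of 28, where 10.7% to 12.9% and 11.5% to 14.2% of all genes were. Of all genes, 1771 were higher in the analysis as reported and 1088 with TPM scaling, where 32.3% of calls were higher instead of 52.9%, and the median of all genes moved from 0.01 to -0.06. The signs that turned belonged to values near 0. With TPM scaling these were Slc25a20 (-0.012), Acadm (-0.049), Hadh (-0.023), Eci1 (-0.066), Eci2 (-0.0036) and Etfb (-0.064), with quantile normalization Eci1 (-0.016), and with voom Etfb (-0.00060). Leaving out 1 library gave log2 fold changes of -0.13 to 0.012 for Cpt2, -0.088 to 0.019 for Acadl, -0.0068 to 0.049 for Acadm, -0.027 to 0.17 for Acads, -0.16 to 0.035 for Acaa2, -0.031 to 0.090 for Eci1 and -0.057 to 0.13 for Etfb. The cause of these changes was not tested. Libraries with the same replicate number did not deviate together from their group means (correlations -0.020, 0.016 and -0.052). With 3 libraries a group, this cannot settle whether the numbers mark a shared culture or preparation. With the replicate block 2 genes were higher and 2 lower, Acadsb being lost (adjusted p = 0.0769), and over all genes 1440 were higher and 1212 lower. Depth limits the low genes: Ppard rested on 138 to 420 fragments a library and Etfb on 130 to 192.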
